A study of Mus musculus with 12 samples.

Results

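The genes described here encode Kit and 9 receptor chains through which myeloid cytokines and interferons act: Csf2ra, Il3ra, Csf2rb, Csf2rb2, Csf3r, Il6ra, Il6st, Ifngr1 and Ifnar1. They were picked by symbol, and all 10 are among the 55450 genes of the deposited table. RNA came from donor bone marrow cells that lacked lineage markers and carried Kit on the surface, sorted from mice after competitive transplantation, and total RNA depleted of ribosomal RNA was sequenced. The 12 libraries carry 4 genotype labels with 3 libraries each: WT, Tet2KO, Id1KO and dKO, the last lacking both genes per its label. The donor cells of all groups had passed through a transplant, and the alleles, the age and the host strain are not stated in the labels. Titles give all libraries of a genotype a single sample number, so the 3 may be repeats of 1 cell sample, and every test below compares these libraries rather than mice. All 10 genes were counted in each of the 12 libraries, with 68 to 6996 estimated counts per gene and library, and all 10 entered the tests. The series asks what loss of Id1, an inhibitor of transcription factor binding, does to blood cells that have lost the DNA dioxygenase Tet2.

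Kit is the receptor tyrosine kinase for stem cell factor. Stem cells, progenitors and mast cells carry it, and its protein was the gate of the sort, so every cell was selected for it. The receptors for GM-CSF and interleukin 3 pair a ligand-specific alpha chain with a shared beta chain. In the mouse a second beta chain, encoded by Csf2rb2, serves interleukin 3 alone. The G-CSF receptor acts as a pair of identical chains, the interleukin 6 receptor joins Il6ra to the shared signal chain Il6st, and Ifngr1 and Ifnar1 are chains of the receptors for type II and type I interferon. Apart from Kit these chains have no kinase of their own and signal through JAK kinases and STAT factors, which in myeloid progenitors govern survival, division and the choice of granulocyte or monocyte fate.

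Neither targeted gene was lower in libraries labelled null for it, so genotype names below are labels only. Levels are given as CPM, counts scaled to a common library size with TMM factors, as mean ± SD over n = 3 libraries unless single libraries are given. Tet2 stood at 99.3 ± 2.2 CPM in libraries labelled WT against 129.9 ± 2.5 in Tet2KO, and 92.0 ± 1.5 in Id1KO against 118 ± 3.1 in dKO. Id1 stood at 24 to 34 counts per library labelled WT and at 56 to 79 in the other 9. Whole-gene counts would not show the loss of a short part of a gene. Library totals ran from 15706407 to 19959183 estimated counts. The transcript Xist, made from the inactive X chromosome, ranged from 252 to 272 CPM in WT against 9.89 to 12 in Tet2KO, and 60.5 to 69.0 in Id1KO against 16.3 to 17.0 in dKO, and the Y chromosome gene Ddx3y from 46.1 to 50.4 CPM in WT and from 79.4 to 98.5 elsewhere. Both genes thus differed between the labels, not in 1 common order, and whether what they reflect bears on the results below was not tested. Mpo, the peroxidase of early granulocytes, averaged 8430 to 11100 CPM. The listed markers of other and more mature cells were mixed: Tpsb2 and Mcpt4 of mast cells, Cd3e of T cells, Ly6g of neutrophils and Col1a1 and Cdh5 of stroma and endothelium had at most 3 counts in a library. From the same lists Cpa3 had 705 to 1155 counts, Nkg7 1884 to 2786, S100a8 766 to 1050, Pdgfrb 509 to 831 and Pecam1 1559 to 2135.

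The 4 receptor genes whose genotype means spanned the widest range were Csf2rb2 (0.80 on the log2 scale), Il6ra (0.68), Csf2ra (0.56) and Il6st (0.52). Their promoters are shown to set genes whose levels followed the Tet2 label, in either direction, beside their upstream sequence. Each sequence is the 250 bases before the RefSeq transcription start on GRCm38.p6, 5′ to 3′ on the gene's own strand, and capitals mark matches to the motifs searched. RefSeq sequences were at hand for 9 of the 10 genes. The windows lie at chr19:61228419-61228668 on the minus strand for Csf2ra, chr3:89913197-89913446 (minus) for Il6ra, chr13:112463820-112464069 (plus) for Il6st and chr15:78305722-78305971 (minus) for Csf2rb2.
Csf2ra: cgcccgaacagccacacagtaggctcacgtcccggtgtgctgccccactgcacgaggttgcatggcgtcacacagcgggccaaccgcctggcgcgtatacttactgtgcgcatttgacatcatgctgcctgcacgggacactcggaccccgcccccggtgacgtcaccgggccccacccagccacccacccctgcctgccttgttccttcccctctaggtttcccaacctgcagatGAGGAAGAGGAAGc
Il6ra: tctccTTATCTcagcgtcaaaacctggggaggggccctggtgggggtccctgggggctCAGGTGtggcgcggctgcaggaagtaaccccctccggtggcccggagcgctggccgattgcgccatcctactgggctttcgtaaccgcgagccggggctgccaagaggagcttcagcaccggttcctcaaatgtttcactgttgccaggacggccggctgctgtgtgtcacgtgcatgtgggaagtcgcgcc
Il6st: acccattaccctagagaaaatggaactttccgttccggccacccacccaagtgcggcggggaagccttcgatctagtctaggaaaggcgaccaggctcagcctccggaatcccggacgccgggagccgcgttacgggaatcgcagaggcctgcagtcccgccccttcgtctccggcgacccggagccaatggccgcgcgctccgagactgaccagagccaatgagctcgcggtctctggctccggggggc
Csf2rb2: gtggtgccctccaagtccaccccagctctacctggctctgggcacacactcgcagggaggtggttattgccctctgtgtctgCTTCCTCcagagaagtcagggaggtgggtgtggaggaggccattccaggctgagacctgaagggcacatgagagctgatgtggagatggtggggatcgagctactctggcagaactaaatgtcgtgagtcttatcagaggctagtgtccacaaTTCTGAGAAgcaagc
The motifs were GAGGAAG, the core bound by the myeloid factor PU.1, AGATAA of the GATA factors, TGTGGT of the RUNX factors, the E boxes CAGCTG and CAGGTG, and TTCNNNGAA of the STAT factors, each sought on both strands in windows of 300 bases that run 50 bases past the start. Csf2ra held the PU.1 core at -14 to -8 and again at -8 to -2 from the start, as a pair sharing 1 base. Csf2rb2 held it on the opposite strand at -168 to -162 and at 28 to 34, beyond the printed bases, with a STAT match at -15 to -7. Il6ra held a GATA match on the opposite strand at -245 to -240 and CAGGTG at -192 to -187, and Il6st held none of the motifs. Among the others, Kit and Csf3r held 1 PU.1 core each, Ifnar1 held 1 STAT match across its start, and none was in the windows of Ifngr1 and Il3ra. Of all 32851 promoter windows, 13.6% held GAGGAAG, 11.2% AGATAA, 16.8% TGTGGT, 16.3% CAGCTG, 20.2% CAGGTG and 8.3% TTCNNNGAA. Csf2ra, the receptor gene that fell most in Tet2KO against WT, and Csf2rb2, the one that rose most, both carried the PU.1 core. So did Kit and Csf3r, which rose by 8.11% and 16.5% in that comparison. Il6st held no motif and so could share none with Il6ra. Whether the motifs bear on the changes was not tested.

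Csf2rb and Csf2rb2 are neighbours on chromosome 15 in opposite orientation, Csf2rb from 78325752 to 78353847 and Csf2rb2 from 78282507 to 78305721 (GRCm38, GENCODE M21, as are all gene positions below). Their coding sequences, of 2691 and 2637 bases, were identical at 95.2% of 2631 aligned bases, with 126 mismatches and 4 identical stretches of 100 bases or more, the longest of 242. Reads from such stretches fit both genes, and the deposited estimated counts of these genes are not whole numbers because the counting tool shares such reads out. The 90 coding bases with the most mismatches show where reads can tell the genes apart. They are bases 308 to 397 of the Csf2rb coding sequence (chr15:78338897-78338986, plus) and 311 to 400 of that of Csf2rb2 (chr15:78294345-78294434, minus), with the 16 mismatches in capitals.
Csf2rb: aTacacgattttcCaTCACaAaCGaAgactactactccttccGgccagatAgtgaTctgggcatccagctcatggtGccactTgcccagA
Csf2rb2: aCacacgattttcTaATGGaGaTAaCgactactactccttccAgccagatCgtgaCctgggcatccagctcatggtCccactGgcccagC
Among the other members, Csf3r shares 1518 bases at 96.8% identity with the gene model AC105061.2, which had at most 1 count in any library. Il6ra overlaps 242 bases of the antisense model Gm42809, which had at most 4 counts, and Il3ra overlaps 46 bases of the antisense model Gm48860, which had 0.

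Per exonic length, Ifngr1 was the most abundant of the receptor transcripts and Kit the next in all 4 genotypes. The order rests on the lengths of all merged exons, and the transcripts made in these cells may be shorter. Without length, Kit averaged 337.7 CPM and Ifngr1 337.2 in WT, and 365.0 and 283.4 in Tet2KO. In libraries labelled WT the means per kilobase were 118 CPM for Ifngr1, 37.9 for Kit, 26.5 for Csf3r, 18.5 for Csf2ra, 14.5 for Csf2rb, 13.3 for Il6st, 11.9 for Ifnar1, 7.86 for Il3ra, 6.12 for Il6ra and 0.844 for Csf2rb2. Each neighbouring pair in that order was apart in all 3 libraries, and the same held in Tet2KO and Id1KO. The first 3 places and the last were the same in all genotypes. Csf2ra held the fourth place in WT and Id1KO (18 CPM per kilobase) and the seventh in Tet2KO (12.7) and dKO (12.5). In dKO the libraries overlapped between Csf2rb (16.5 CPM per kilobase) and Il6st (16.5), and between Ifnar1 (13) and Csf2ra (12.5). Within a genotype the coefficient of variation over the 3 libraries ran from 0.367% for Kit in Id1KO to 11% for Csf2rb2 in Tet2KO, the gene with the fewest counts.

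**Figure D1:**
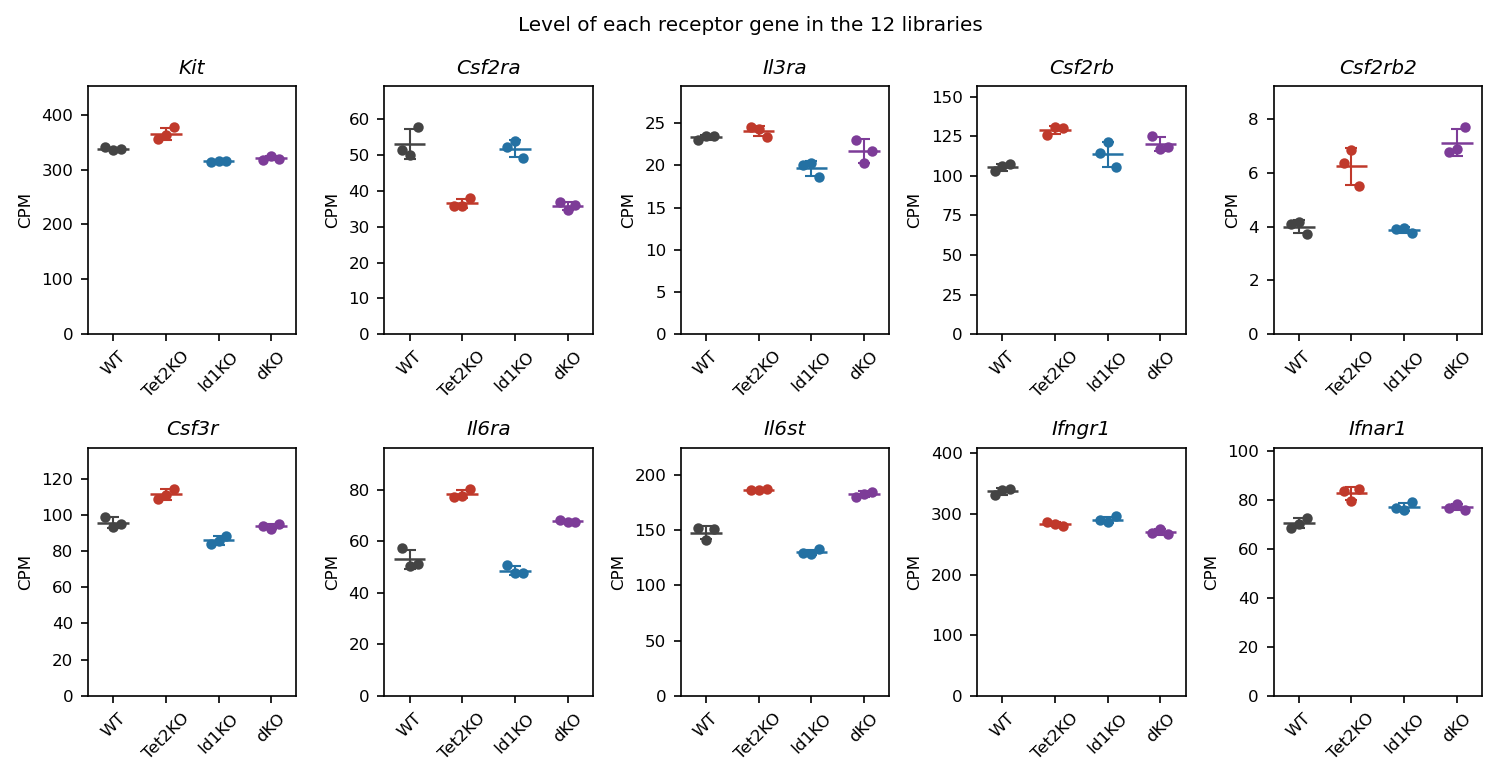
Level of each receptor gene in CPM (vertical axis, from 0, own scale per gene) in the 12 libraries by genotype label (horizontal axis). Points are libraries, bars the mean and whiskers the SD over n = 3; Csf2ra is lower, and Csf2rb2, Il6ra and Il6st are higher, in the 6 libraries labelled Tet2KO or dKO than in the other 6.

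Kit (ENSMUSG00000005672.12, chromosome 5, 75574916 to 75656722, plus strand, 21 merged exons) moved little but evenly. Its 3 libraries stood at 340.3, 336 and 337 CPM in WT, at 355, 364 and 377 in Tet2KO, at 314, 316 and 315 in Id1KO, and at 317, 324 and 320 in dKO. All Tet2KO libraries lay above all others, and all WT libraries lay above those of Id1KO and dKO. Kit rose by 8.11% in Tet2KO against WT (log2 fold change 0.11 ± 0.026 SE, edgeR adjusted p = 0.00236). It fell by 12.3% in dKO against Tet2KO (-0.19 ± 0.026, adjusted p = 2.52e-05) and fell by 6.67% in Id1KO against WT (-0.10 ± 0.026, adjusted p = 0.0132). Between dKO and Id1KO the difference was 0.02 ± 0.026, with an adjusted p of 0.605. The call in dKO against WT (-0.08, adjusted p = 0.0476) was lost in 9 of the 12 fits that left out 1 library, and that in Id1KO against WT was lost without Id1KO replicate 1 (adjusted p = 0.0639). DESeq2 lost the call in dKO against WT too (DESeq2 adjusted p = 0.066).

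Csf2ra, the alpha chain of the GM-CSF receptor (ENSMUSG00000059326.7, chromosome 19, 61223957 to 61228429, minus strand, 9 exons), separated the libraries by the Tet2 label. It stood at 51.5, 49.96 and 57.7 CPM in WT and at 52.2, 53.9 and 49.2 in Id1KO, against 35.8, 35.9 and 38.0 in Tet2KO and 36.8, 34.7 and 36.0 in dKO. No library labelled Tet2KO or dKO reached the lowest of the other 6. It fell by 31.0% in Tet2KO against WT (-0.53 ± 0.055 on the log2 scale, edgeR adjusted p = 3.03e-07) and by 30.9% in dKO against Id1KO (-0.53 ± 0.055, adjusted p = 6.88e-07). The Id1 label made a difference of -0.03 ± 0.052 against WT and of -0.03 ± 0.059 against Tet2KO, with adjusted p of 0.712 and 0.739.

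Il3ra, the alpha chain of the interleukin 3 receptor (ENSMUSG00000068758.8, chromosome 14, 14346275 to 14356011, plus strand, 12 exons), stood at 23.0, 23.5 and 23.5 CPM in WT and at 24.5, 24.4 and 23.4 in Tet2KO. It stood at 20.1, 20.3 and 18.7 in Id1KO and at 23.1, 20.3 and 21.7 in dKO. The Id1KO libraries were the lowest, though 1 dKO library came as low. Il3ra fell by 15.6% in Id1KO against WT (-0.24 ± 0.058, edgeR adjusted p = 0.00639), its single call among the 5 pairwise comparisons. The Tet2 label gave 0.05 ± 0.057 against WT and 0.14 ± 0.06 against Id1KO (adjusted p = 0.589 and 0.112), and dKO against Tet2KO gave -0.15 ± 0.058 (adjusted p = 0.0646).

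Csf2rb, the beta chain shared by the receptors for GM-CSF, interleukin 3 and interleukin 5 (ENSMUSG00000071713.6, 17 exons), stood at 103, 106 and 107 CPM in WT, 126, 131 and 130.0 in Tet2KO, 115, 121 and 105 in Id1KO, and 125, 117 and 118 in dKO. The WT libraries were low and the Tet2KO libraries high, while the Id1KO libraries overlapped those of WT and dKO. It rose by 22.3% in Tet2KO against WT (0.29 ± 0.041, edgeR adjusted p = 1.57e-05) and by 13.8% in dKO against WT (0.19 ± 0.041, adjusted p = 0.00285). The difference between dKO and Id1KO was 0.08 ± 0.041 (adjusted p = 0.213).

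Csf2rb2, the beta chain of interleukin 3 alone (ENSMUSG00000071714.7, minus strand, 14 exons), was the least abundant chain. It stood at 4.10, 4.18 and 3.73 CPM in WT and at 3.90, 3.96 and 3.74 in Id1KO, against 6.37, 6.85 and 5.49 in Tet2KO and 6.78, 6.89 and 7.68 in dKO. These are 68 to 130 estimated counts, and the libraries of the Tet2 labels stood above all others. It rose 1.55-fold in Tet2KO against WT (0.64 ± 0.118, edgeR adjusted p = 0.000328) and 1.84-fold in dKO against Id1KO (0.88 ± 0.118, adjusted p = 1.75e-05). Its values depend on how reads shared with Csf2rb were split. The summed counts of both beta chains gave 0.30 in Tet2KO against WT (edgeR adjusted p = 6.25e-06) and 0.11 in dKO against Id1KO, which was not called (adjusted p = 0.0556). Csf2rb makes up most of that sum and alone gave 0.29 and 0.08. The sum therefore cannot tell whether the split of reads made the rise of Csf2rb2.

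The balance of alpha to beta chains differed between the labels. Per exonic length the ratio of Csf2ra to Csf2rb was 1.28 ± 0.086 in WT and 1.16 ± 0.028 in Id1KO, against 0.719 ± 0.022 in Tet2KO and 0.757 ± 0.013 in dKO, with no overlap between the 6 libraries of either kind. The lengths used are all merged exons, 2871 bases for Csf2ra and 7277 for Csf2rb, and the transcripts made in these cells may be shorter. The ratio thus differed between the labels, but which chain was more abundant cannot be told from it. A change of the lengths common to all genotypes would shift them alike. Whether transcript lengths differed between the genotypes was not tested. The ratio of Il3ra to Csf2rb was 0.543 ± 0.0063 in WT against 0.458 ± 0.018 in Tet2KO, and 0.425 ± 0.012 in Id1KO against 0.443 ± 0.015 in dKO, so that WT stood above the other 3. The ratio of Csf2rb2 to Csf2rb was 0.0583 ± 0.0043 in WT against 0.0743 ± 0.0083 in Tet2KO, and 0.0523 ± 0.0022 in Id1KO against 0.0912 ± 0.0083 in dKO. These ratios are descriptions of transcript levels, not of protein on the cell.

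**Figure D2:**
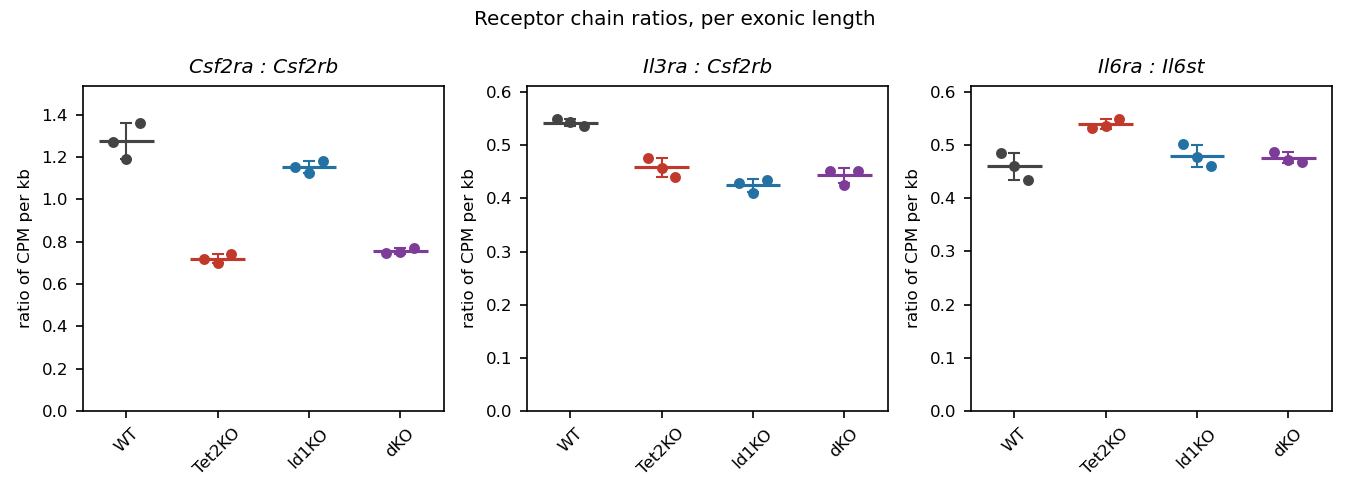
Ratios of CPM per kilobase of exon (vertical axes, from 0) between chains that work together, by genotype label (horizontal axis). Points are libraries, bars the mean and whiskers the SD over n = 3; the ratio of Csf2ra to Csf2rb lies between 1.13 and 1.36 in WT and Id1KO and between 0.697 and 0.771 in Tet2KO and dKO.

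Csf3r, the G-CSF receptor that drives granulocyte production (ENSMUSG00000028859.14, chromosome 4, 126024550 to 126044440, plus strand, 17 exons), went up with the Tet2 label and down with the Id1 label. It stood at 98.9, 93.1 and 94.7 CPM in WT, 109, 111 and 114 in Tet2KO, 83.6, 85.5 and 88.4 in Id1KO, and 93.6, 92.1 and 95.2 in dKO. Tet2KO libraries were the highest and Id1KO libraries the lowest, and WT and dKO overlapped. It rose by 16.5% in Tet2KO against WT (0.22 ± 0.033, edgeR adjusted p = 3.37e-05) and by 9.06% in dKO against Id1KO (0.13 ± 0.034, adjusted p = 0.0136). It fell by 10.2% in Id1KO against WT (-0.15 ± 0.034, adjusted p = 0.00354) and by 15.9% in dKO against Tet2KO (-0.25 ± 0.034, adjusted p = 1.65e-05). The rise in dKO against Id1KO was lost without Id1KO replicate 1 or dKO replicate 3 (adjusted p up to 0.0752) and with DESeq2 (0.052). Between dKO and WT the difference was -0.03 ± 0.034 (adjusted p = 0.603).

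Il6ra, the ligand-binding chain of the interleukin 6 receptor (ENSMUSG00000027947.11, chromosome 3, 89864059 to 89913196, minus strand, 10 exons), rose most among the more abundant chains. It stood at 57.2, 50.5 and 51.1 CPM in WT, 77.1, 77.6 and 80.3 in Tet2KO, 50.6, 47.7 and 47.6 in Id1KO, and 68.4, 67.4 and 67.5 in dKO. The dKO libraries lay between those of Tet2KO and the other genotypes and overlapped neither. It rose by 48.0% in Tet2KO against WT (0.57 ± 0.044, edgeR adjusted p = 6.4e-09) and by 39.3% in dKO against Id1KO (0.48 ± 0.046, adjusted p = 2.11e-07). It fell by 13.6% in dKO against Tet2KO (-0.21 ± 0.043, adjusted p = 0.00116), and in Id1KO against WT the difference was -0.12 ± 0.046 (adjusted p = 0.0816).

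Il6st, the signal chain that Il6ra shares with the receptors of the interleukin 6 family (ENSMUSG00000021756.12, chromosome 13, 112464070 to 112510086, plus strand, 20 exons), moved in the same direction with the Tet2 label. It stood at 152, 141 and 151 CPM in WT, 186, 186 and 187 in Tet2KO, 129.5, 128 and 133 in Id1KO, and 180.0, 183 and 185 in dKO. The Tet2KO and dKO libraries were high and close to each other, and the Id1KO libraries were the lowest. It rose by 26.3% in Tet2KO against WT (0.34 ± 0.03, edgeR adjusted p = 4.63e-08) and by 40.5% in dKO against Id1KO (0.49 ± 0.031, adjusted p = 4.77e-10). It fell by 11.9% in Id1KO against WT (-0.18 ± 0.031, adjusted p = 0.000344), while dKO against Tet2KO gave -0.03 ± 0.03 (adjusted p = 0.504). The ratio of Il6ra to Il6st per exonic length was 0.46 ± 0.025 in WT against 0.539 ± 0.0095 in Tet2KO, and 0.48 ± 0.021 in Id1KO against 0.477 ± 0.01 in dKO.

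The interferon receptor chains differed in direction against WT. Ifngr1, the ligand-binding chain for interferon gamma (ENSMUSG00000020009.13, chromosome 10, 19591949 to 19610229, plus strand, 8 exons), stood at 331, 339 and 341 CPM in WT, 287, 283 and 280.0 in Tet2KO, 289.6, 286 and 296 in Id1KO, and 269, 276 and 267 in dKO. The WT libraries stood above the other 9 and the dKO libraries below them. It fell by 16% in Tet2KO (-0.25 ± 0.026, edgeR adjusted p = 3.69e-07), by 13.8% in Id1KO (-0.21 ± 0.026, adjusted p = 9.46e-06) and by 19.8% in dKO (-0.32 ± 0.026, adjusted p = 2.67e-08), each against WT. In dKO against Id1KO it fell by 7.0% (-0.10 ± 0.026, adjusted p = 0.00766).

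Ifnar1, a chain of the type I interferon receptor (ENSMUSG00000022967.13, chromosome 16, 91485238 to 91507441, plus strand, 12 exons), stood at 68.6, 70.2 and 72.6 CPM in WT, 83.8, 79.8 and 84.6 in Tet2KO, 76.9, 76.0 and 79.1 in Id1KO, and 76.9, 78.3 and 75.9 in dKO. The WT libraries were the lowest and the Tet2KO libraries the highest, and Id1KO and dKO overlapped. It rose by 17.4% in Tet2KO against WT (0.23 ± 0.035, edgeR adjusted p = 3.81e-05), and no difference was called in dKO against Id1KO (-0.0049 ± 0.035, adjusted p = 0.947). Smaller calls were 0.13 in Id1KO against WT (edgeR adjusted p = 0.0129), 0.13 for the dKO libraries over those of WT (adjusted p = 0.0142) and -0.10 for dKO against Tet2KO (adjusted p = 0.0364). Each was lost without some single library, with adjusted p up to 0.0533, 0.0527 and 0.137. DESeq2 lost the calls in dKO against WT (DESeq2 adjusted p = 0.0594) and in dKO against Tet2KO (0.109).

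Counted together, 7 of the 10 receptor genes rose and 2 fell in Tet2KO against WT, and Il3ra was not called. Over all 14346 genes tested, 16.6% rose and 16.2% fell in that comparison. In dKO against Id1KO 4 rose and 2 fell, against 10.6% and 8.7% of all genes. The median log2 fold change of the 10 genes was 0.23 and 0.10 in these comparisons, where that of all genes was -0.0028 and -0.0017. The comparisons share no library. The 6 genes called in the second, Csf2ra, Csf2rb2, Csf3r, Il6ra, Il6st and Ifngr1, were called in the same direction in the first, which is 66.7% of the 9 called there. Over all genes 1350 were called in both in the same direction, 28.7% of 4699 and 48.9% of 2762. With the libraries of each genotype summed to 1, which leaves 1 degree of freedom for the spread, and additive effects of the labels, a fit in which libraries of a genotype do not count as replicates, Il6ra (0.53, edgeR adjusted p = 0.0235) and Il6st (0.42, adjusted p = 0.0317) rose and Csf2ra fell (-0.53, adjusted p = 0.0235) with the Tet2 label. In that fit 1.15% of all genes rose and 0.467% fell, and Csf2rb2 missed the threshold (0.76, adjusted p = 0.055).

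The effect of the Id1 label among libraries that carry the Tet2 label, the question of the series, is dKO against Tet2KO. There none of the 10 receptor genes rose and 4 fell by edgeR, namely Kit, Csf3r, Il6ra and Ifnar1, against 13.1% and 13.4% of all genes. No rise had an unadjusted p under 0.05 or a call by DESeq2. DESeq2 called 3 falls, without that of Ifnar1 (DESeq2 adjusted p = 0.109), where it called 19.2% of all genes in either direction. In Id1KO against WT Ifnar1 rose and Kit, Il3ra, Csf3r, Il6st and Ifngr1 fell, against 7.26% and 7.77% of all genes. These comparisons share no library. Kit and Csf3r fell in both, which is 33.3% of the 6 genes called in Id1KO and 50% of the 4 called in dKO, and Ifnar1 was called in opposite directions. Over all genes 760 were called in both in the same direction, 35.3% and 20%. The medians of the receptor genes were -0.11 in Id1KO against WT and -0.10 in dKO against Tet2KO, against -0.0078 and -9.48e-05 over all genes. In dKO against WT 5 rose (Csf2rb, Csf2rb2, Il6ra, Il6st and Ifnar1) and 3 fell (Kit, Csf2ra and Ifngr1), against 10.2% and 8.97% of all genes. Of these calls DESeq2 lost those of Ifnar1 (DESeq2 adjusted p = 0.0594) and Kit (0.066). Neither Id1 label comparison nor dKO against WT kept a called receptor gene with the libraries summed, where edgeR called 7 and 11 of all genes. In that fit the log2 effects of the 10 receptor genes ran from -0.20 (Csf3r) to 0.08 (Csf2rb2) for the Id1 label. For dKO against WT they ran from -0.56 (Csf2ra) to 0.84 (Csf2rb2).

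**Figure D3:**
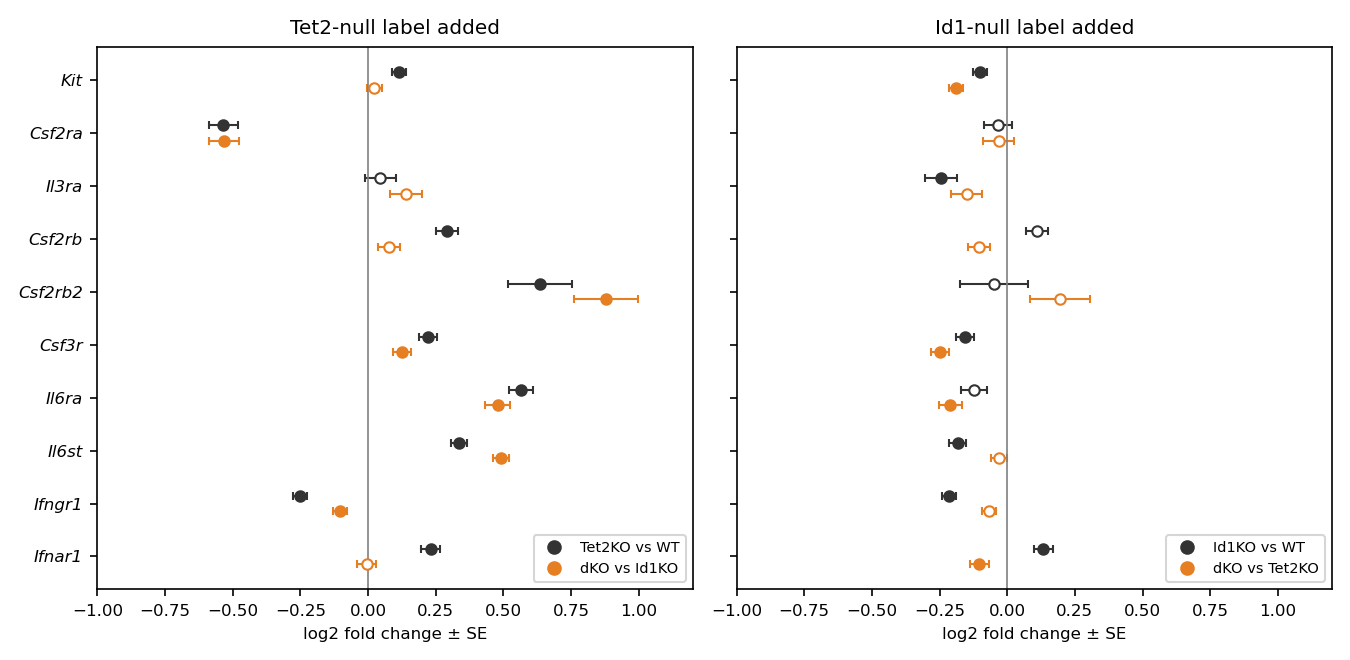
Log2 fold change ± SE (horizontal axis) of each receptor gene (vertical axis) for the Tet2 label on either Id1 background (left) and for the Id1 label on either Tet2 background (right). Filled points passed an edgeR adjusted p of 0.05; Csf2ra lies at -0.53 in both comparisons on the left and at -0.03 in both on the right.

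The difference between both effects of a label was tested as an interaction, and 2 receptor genes were called with a positive and 2 with a negative value, against 7.46% and 7.03% of all genes. For Ifnar1 the Tet2 effect was 0.23 on the WT background and -0.0049 on the Id1KO background, a difference of -0.24 ± 0.05 (edgeR adjusted p = 0.00299). For Csf2rb the effects were 0.29 and 0.08 (difference -0.21 ± 0.058, adjusted p = 0.0165), for Ifngr1 -0.25 and -0.10 (0.15 ± 0.037, adjusted p = 0.0113) and for Il6st 0.34 and 0.49 (0.15 ± 0.043, adjusted p = 0.0195). Leaving out a single library ended the call of Il6st in 5 of 12 fits, with an adjusted p of up to 0.0684, and that of Csf2rb without Id1KO replicate 2 (0.0513). For the 3 largest changes in Tet2KO against WT no difference was called: Csf2ra gave 0.0023 ± 0.078 (adjusted p = 0.99), Il6ra -0.09 ± 0.063 (0.402) and Csf2rb2 0.24 ± 0.168 (0.374).

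Markers of cell types inside the sorted population moved with the labels too. The summed level of the 15 erythroid markers ran from 1589 to 1643 CPM in WT against 903.7 to 910.3 in Tet2KO, and 1706 to 1729 in Id1KO against 1546 to 1566 in dKO. Called lower in Tet2KO against WT were 14 of 15 (16.2% of all genes), and higher in dKO against Tet2KO 14 of 15 (13.1%). The sum was lowest in Tet2KO. Of the 11 neutrophil markers tested 6 rose and 2 fell in Tet2KO against WT (16.6% and 16.2% of all genes). The neutrophil markers summed to 14080 to 14140 CPM in WT against 15550 to 15790 in Tet2KO, and 11830 to 12810 in Id1KO against 11650 to 12840 in dKO. In that order Tet2KO was highest, as for Csf3r and Kit. The 9 monocyte and dendritic markers summed to 1527 to 1568, 1584 to 1606, 1361 to 1370 and 1667 to 1683 CPM, the 10 stem and multipotent markers to 528 to 536, 577 to 590.1, 458 to 475 and 469 to 478, and the 5 mast cell and basophil markers to 146.5 to 152, 159 to 161, 143.5 to 153.5 and 137 to 141 in WT, Tet2KO, Id1KO and dKO. The monocyte and dendritic sum was higher in Tet2KO and dKO than in WT and Id1KO, the same split of the libraries as for Csf2ra, Il6ra, Il6st and Csf2rb2. Its markers did not all move so: 5 rose and 2 fell in Tet2KO against WT (16.6% and 16.2% of all genes). In dKO against Id1KO 6 rose and 0 fell (10.6% and 8.7%). F13a1, the most abundant of them, averaged 656 CPM in WT and 606 in Tet2KO. Of the neutrophil markers tested, Prtn3, Ltf, S100a8, S100a9 and Mmp8 had that split in their means, and Mpo, Elane, Ctsg, Camp, Ngp and Lcn2 did not. S100a9 averaged 12.1 CPM in WT and 13.9 in Id1KO against 19.7 in Tet2KO and 22.4 in dKO. Mpo, the most abundant, averaged 9910 in WT and 8430 in Id1KO against 11100 in Tet2KO and 8510 in dKO. The summed level of the 9 megakaryocyte markers was highest in Id1KO, at 377 to 389.8 CPM against 295.7 to 319.8 in the other genotypes, that of the 8 lymphoid markers was highest in Tet2KO (195 to 199 against 139 to 180.2), and that of 3 stroma and endothelium markers likewise (157 to 165 against 122 to 142). In cells measured in bulk, fewer cells of a type and less RNA per cell cannot be told apart, and the part of these markers in the receptor results was not tested.

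Around the receptors, 85 other genes of the pathway were followed by role, of which 74 were abundant enough to test. In Tet2KO against WT 33 rose and 3 fell, with a median of 0.11, where 16.6% and 16.2% of all genes did. In dKO against Tet2KO 4 rose and 24 fell, with a median of -0.08, against 13.1% and 13.4% of all genes. In dKO against Id1KO 14 rose and 9 fell (10.6% and 8.7% of all genes), in Id1KO against WT 12 rose and 14 fell (7.26% and 7.77%), and in dKO against WT 15 rose and 4 fell (10.2% and 8.97%). The interaction was called for 3 genes with a positive and 16 with a negative value (7.46% and 7.03%). The counts by role below are read against the same shares, and with so few genes a role a count of a few lies near them.

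Of 17 ligands 10 were too scarce to test. Kitl, the ligand of Kit, had at most 4 counts in a library, Csf2 and Csf3 at most 1, and Il3, Ifnb1, Thpo and Epo had 0. Others were as abundant as the least abundant receptor chain: Csf1, the ligand of the macrophage receptor Csf1r, averaged 10.4 to 11.7 CPM over the genotypes, Osm 9.96 to 10.4 and Flt3l 5.18 to 6.1. Of 7 ligands tested none passed the threshold in Tet2KO against WT or dKO against Tet2KO by edgeR or DESeq2, nor an unadjusted p of 0.05. Clcf1, a ligand of the interleukin 6 family named here after its values were seen, was called in Id1KO against WT (-0.52 ± 0.16, edgeR adjusted p = 0.0324; 2.79 against 4.0 CPM) and in dKO against Id1KO (0.49 ± 0.164, adjusted p = 0.0435), but by DESeq2 in neither. It shares 311 exonic bases with the gene model AC109138.7. Of 15 partner and related receptors tested, 10 rose and 1 fell in Tet2KO against WT, and 1 rose and 7 fell in dKO against Tet2KO. Epor, the erythropoietin receptor and itself 1 of the erythroid markers, was the exception in both. It stood at 25.2 to 27.4 CPM in WT against 13.6 to 14.3 in Tet2KO, and 26.4 to 28.1 in Id1KO against 22.5 to 25.7 in dKO, and fell by 46.6% in Tet2KO against WT (-0.91 ± 0.063, edgeR adjusted p = 1.24e-09). It rose by 70.8% in dKO against Tet2KO (0.77 ± 0.065, adjusted p = 3.57e-08). The list also holds Csf1r, Flt3 and Il7r, which are markers of other cell types in the lists above.

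Of 14 kinases and STAT factors, 3 rose in Tet2KO against WT and 4 fell in dKO against Tet2KO. Jak3, the kinase of the common gamma chain, rose by 21% in Tet2KO against WT (0.27 ± 0.055, edgeR adjusted p = 0.000627) with an interaction of -0.30 ± 0.077 (adjusted p = 0.0126), and shares 404 exonic bases with Insl3 on the same strand. Of 8 adapters and PI3 kinase subunits, 5 rose in Tet2KO against WT and 4 fell in dKO against Tet2KO. Gab2, a docking protein downstream of Kit and the beta chain, stood at 42.9 to 43.7 CPM in WT and 51.3 to 53.1 in Tet2KO, a rise of 21.2% (0.28 ± 0.04, adjusted p = 2.12e-05). Pik3cg, a catalytic PI3 kinase subunit of blood cells, stood at 161.5 to 166 CPM in Tet2KO and 137 to 138 in dKO, a fall of 0.25 ± 0.026 on the log2 scale (-0.25, adjusted p = 4.66e-07).

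Of 18 inhibitors, 10 rose and 1 fell in Tet2KO against WT, and 1 rose and 4 fell in dKO against Tet2KO. Socs3, which blocks signals of Il6st and Csf3r, stood at 1.56 to 2.22 CPM in WT against 3.34 to 3.72 in Tet2KO, and 5.01 to 6.15 in Id1KO against 4.07 to 4.31 in dKO. Its mean reached the 5 CPM needed to be named in Id1KO alone, the group where it is high, so its rise is given as a description. It was 2.97-fold higher in Id1KO than in WT (1.57 ± 0.143 on the log2 scale), with an interaction of -1.34 ± 0.202. Of 12 targets, 5 rose and 1 fell in Tet2KO against WT, and 2 rose and 5 fell in dKO against Tet2KO. Pim1, a survival kinase induced by STAT factors, stood at 99.3 to 106 CPM in WT and 156 to 159 in Id1KO. It rose by 52.8% (0.61 ± 0.031, edgeR adjusted p = 2.86e-11). It overlaps 488 bases of the antisense model Gm26885, and whether the counts use strand is not given in the sources used here. Cebpb, a transcription factor of emergency granulocyte production, had an interaction of -0.45 ± 0.119 (adjusted p = 0.0141) and overlaps 312 bases of Tmem189 on the opposite strand.

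**Figure D4:**
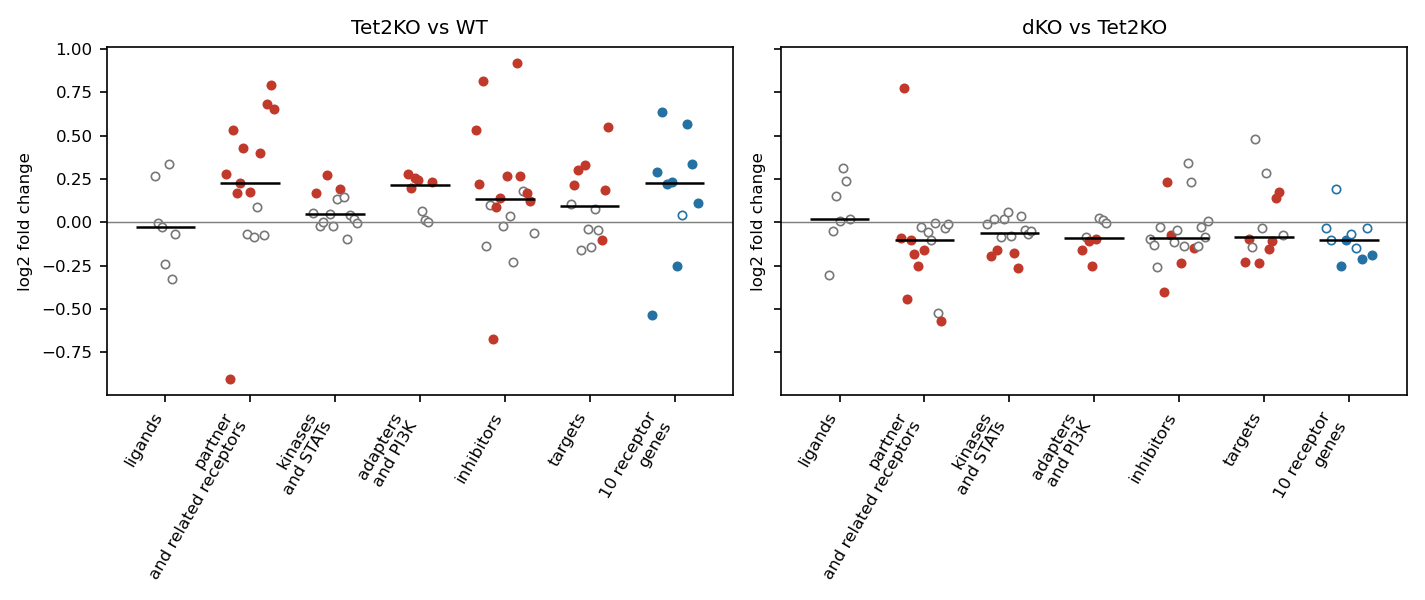
Log2 fold change (vertical axis) of the pathway genes by role and of the 10 receptor genes (horizontal axis) in Tet2KO against WT (left) and dKO against Tet2KO (right). Each point is a gene, filled where the edgeR adjusted p was under 0.05, and bars are medians; 33 of 74 pathway genes rose on the left and 24 fell on the right.

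Over the 4 genotype means, the genes nearest to Kit in pattern among 10335 compared were Slc8b1, Gsdmd and Tm2d2, with root mean square differences of 0.0029, 0.0058 and 0.0075 on the log2 scale. Nearest to Csf2rb2, the member with the widest range, were Gm4070, Setd1b and Gpr141, with differences of 0.032, 0.037 and 0.046. Gm4070, for example, averaged 64.2 CPM in WT against 101 in Tet2KO, and 64.6 in Id1KO against 115 in dKO. Each likeness rests on 4 means, and with so many genes compared some lie close to any pattern.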

How the data were processed

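The authors deposited expected counts per gene for 12 libraries of sorted Lin- ckit+ cells, which are estimated and not normalized. STAR, RSEM and the build mm10 are named in the submitters' processing notes, and the strand setting is not given in the sources used here. Libraries were stranded total RNA depleted of ribosomal RNA, per the labels' protocols. All 55450 identifiers matched GENCODE M21.

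Groups are the genotype labels, with 3 libraries each. All 12 pairs of libraries within a genotype differed beyond sampling noise (chi-square per gene 1.52 to 5.35) and were kept apart, which does not show separate cell samples. The number in the title was not used to pair libraries in the main fit. Of 18 same-number pairs 7 had a correlation over 0.1, with a range of -0.282 to 0.307 and a median of 0.08. Pairs of different number ran from -0.321 to 0.454. Partial pairing is not excluded, and a replicate block was fitted as an alternative.

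Expected counts were rounded. Genes kept by edgeR's filterByExpr (minimum count 10) numbered 14346. All libraries were fitted together by edgeR's quasi-likelihood model with TMM scaling, 1 mean per genotype and a common biological coefficient of variation of 0.0305. Two-sided F-tests for 5 pairwise comparisons and the interaction were adjusted by Benjamini-Hochberg over all genes tested, with a threshold of 0.05. The steps were tested on simulated data. Exonic lengths are merged exons. Near copies were sought with blast at 95% identity over 100 bases.

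The receptor genes, the pathway and marker lists and the promoter motifs were chosen with earlier results of these data known. Named pathway genes are, per role, the called gene with the largest rise and the largest fall over the comparisons, with 5 CPM or more on average in either group compared and no overlap of libraries (overlap was not asked of the interaction), a rule that named no ligand. Genes nearest in pattern are the 3 with at least 5 CPM closest to Kit and to the member with the widest range. Alternatives were other scalings (RLE, upper quartile, without 6121 mitochondrial and small structural RNA genes), other filters, DESeq2, a replicate block, only the libraries compared, summed libraries, summed beta chains, a threshold of 0.01 and leaving out each library. The fits ran in R 4.3.3 with edgeR 4.0.16 over limma 3.58.1, and DESeq2 was version 1.42.0. Tables were made in Python 3.11.15, plots in matplotlib 3.10.9, and alignments in blast 2.17.0.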

Additional observations from a re-analysis of the deposited data

Results flagged for a closer look

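The effect of the Tet2 label differed between Id1 backgrounds for 4 of the 10 receptor genes by edgeR's interaction test, which called 14.5% of all genes. The difference, as dKO minus Id1KO less Tet2KO minus WT, was -0.24 on the log2 scale for Ifnar1 (adjusted p = 0.00299), -0.21 for Csf2rb (0.0165), 0.15 for Ifngr1 (0.0113) and 0.15 for Il6st (0.0195). Ifnar1 and Csf2rb were called on the WT background and not on the Id1KO background, Ifngr1 fell less on the latter and Il6st rose more. With a threshold of 0.01 only Ifnar1 of these 4 was called, where 6.78% of all genes were. Of the 12 fits that left out 1 library, 5 lost the call of Il6st and 1 that of Csf2rb.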

How the results depend on the processing

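No scaling changed a count of called receptor genes by over 1.5 times. Leaving out 1 library gave 9 called receptor genes in each fit for Tet2KO against WT, 5 to 7 for dKO against Id1KO, 5 to 6 for Id1KO against WT, 3 to 5 for dKO against Tet2KO, 6 to 8 for dKO against WT and 3 to 4 for the interaction. For pathway genes it gave 15 to 28 in Id1KO against WT, 12 to 19 in dKO against WT and 18 to 28 in dKO against Tet2KO. Of all genes these fits called 26.2% to 34% in Tet2KO against WT and 14.5% to 19.5% in dKO against Id1KO. They called 10.4% to 16.4% in Id1KO against WT and 20.3% to 26.4% in dKO against Tet2KO. In dKO against WT they called 13.7% to 19.1%, and in the interaction 10.9% to 14.8%.

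An adjusted p under 0.01 left 14 of 74 pathway genes in dKO against Id1KO (11.1% of all genes) and 10 in Id1KO against WT (7.56%). It left 15 in dKO against Tet2KO (15.9%), 12 in dKO against WT (10.9%) and 10 in the interaction (6.78%). Of the receptor genes it left 1 in the interaction. DESeq2 called 17 pathway genes in Id1KO against WT, where it called 10% of all genes. It lost 4 calls of receptor genes: Csf3r in dKO against Id1KO, Ifnar1 in dKO against Tet2KO, and Kit and Ifnar1 in dKO against WT. Without a filter on low counts Ifnar1 in dKO against Tet2KO was lost as well (edgeR adjusted p = 0.0637). That fit gained Csf2rb in dKO against Tet2KO (0.0228) and Csf2rb and Il6ra in Id1KO against WT (0.0444 and 0.0469). Upper-quartile scaling gained Ifngr1 in dKO against Tet2KO (edgeR adjusted p = 0.0428). Fits of only the libraries compared gained Csf2rb in dKO against Tet2KO (edgeR adjusted p = 0.036) and lost Kit in dKO against WT (0.0866). With libraries summed, 3 receptor and 2 pathway genes were called for the Tet2 label (Tet2KO against WT and dKO against Id1KO, which are 1 effect there), and 0 and 0 for the Id1 label and for dKO against WT by edgeR, where 1428 and 1292 of all genes had an unadjusted p under 0.05. Fewer samples enter that fit.

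Signs turned in Csf2ra's interaction, at -0.0015 with RLE, -0.0026 with upper-quartile scaling, -0.0002 without small RNA in the scaling, -0.0008 with DESeq2 and -0.0669 to 0.0386 over the fits without 1 library. They turned too in Csf2ra's Id1KO against WT (-0.0724 to 0.0333 without 1 library) and Ifnar1's dKO against Id1KO (-0.0203 to 0.01). Summed libraries turned Ifnar1 in dKO against Id1KO (0.1173) and dKO against Tet2KO (0.0181), Csf2rb2 in Id1KO against WT (0.0826) and Csf2rb in dKO against Tet2KO (0.0063). Of these values, Ifnar1 in dKO against Tet2KO is the one that was called. The summed beta chains, set in place of Csf2rb2, gave 0.1049 in Id1KO against WT, -0.0884 in dKO against Tet2KO and -0.1933 in the interaction, where Csf2rb makes up most of the counts. With the libraries of each genotype summed, a label has 1 effect for both backgrounds. In each turn under that fit, the main fit had opposite signs on the backgrounds. Ifnar1, for example, had 0.1335 in Id1KO against WT and -0.1027 in dKO against Tet2KO. The cause of the turns with other scalings, DESeq2 or without 1 library was not tested.

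A replicate block ended 1 call of a receptor gene, Kit in dKO against WT (-0.08, edgeR adjusted p = 0.0695). It left 7 called receptor genes there, where 17.9% of all genes were called. Of the 12 libraries 6 correlated best with a library of their own number. Depth limits Csf2rb2 most, at 68 to 130 counts per library.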
